A study of Mus musculus with 2 samples.

Results

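The 10 genes described here are Gzma, Gzmb, Gzmc, Prf1, Nkg7, Fasl, Ifng, Xcl1, Tbx21 and Eomes, which encode the cytotoxic granule proteins and type 1 effector molecules of lymphocytes. They were picked by symbol from the 55353 symbols of the deposited gene tables, and each symbol matched 1 row. Dorsal skin of C57BL/6 mice, 7 weeks old, gave 2 libraries, profiled by single-cell sequencing of transcript 3' ends. The mice of the imiquimod library received imiquimod, an agonist of an innate nucleic acid receptor that is used on mouse skin to provoke psoriasis-like inflammation. The mice of the other library received imiquimod together with Shi-Bi-Man, so both groups carry the imiquimod treatment. The libraries are called imiquimod alone and both agents below. The number of animals behind each library was not given in the sources used here, and an untreated library was not analysed here. Each treatment is 1 library, so no difference below has a replicate check and no p-value is given. Intervals are exact 95% intervals that cover counting error only. Where a gene has 0 counts, the limit given is instead that of 3 counts.

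Cytotoxic lymphocytes kill by releasing granules that hold granzymes, which are serine proteases, and perforin, which opens the membrane of the target cell so that granzymes can enter. Fas ligand offers a second route to target cell death, through the receptor Fas. The same cells secrete interferon gamma and the chemokine XCL1, and the T-box factors T-bet and Eomes drive this programme. In mouse skin it is known from CD8 T cells, natural killer cells, group 1 innate lymphoid cells and the gamma delta T cells of the epidermis, while the IL-17-producing gamma delta T cells of the dermis are known for another programme.

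All 10 genes are protein-coding in GENCODE vM21, whose coordinates are those of the GRCm38 build. Gzmb, at chr14:56258838-56262260, and Gzmc, at chr14:56231441-56234656, lie on the minus strand 24181 bases apart, while Gzma lies at chr13:113093825-113100981 on the minus strand. Xcl1 lies at chr1:164931644-164935527, also on the minus strand. These 4 genes carried the contrasts reported below, so their upstream sequences are shown. Each is the RefSeq sequence of GRCm38.p6 over the 250 bases before the RefSeq transcription start, on the gene's own strand. Bases that GENCODE counts as transcribed were left out, which leaves 245 for Xcl1. The windows are chr13:113100982-113101231 (Gzma), chr14:56262335-56262584 (Gzmb), chr14:56234658-56234907 (Gzmc) and chr1:164935528-164935772 (Xcl1), all on the minus strand. Capitals mark matches on either strand to the Runx core TGTGGT, the T-box site TCACACC or the AP-1 site TGANTCA.
Gzma: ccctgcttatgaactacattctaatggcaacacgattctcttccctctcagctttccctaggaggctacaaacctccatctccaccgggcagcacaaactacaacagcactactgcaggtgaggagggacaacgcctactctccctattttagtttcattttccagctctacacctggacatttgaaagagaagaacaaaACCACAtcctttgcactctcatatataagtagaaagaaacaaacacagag
Gzmb: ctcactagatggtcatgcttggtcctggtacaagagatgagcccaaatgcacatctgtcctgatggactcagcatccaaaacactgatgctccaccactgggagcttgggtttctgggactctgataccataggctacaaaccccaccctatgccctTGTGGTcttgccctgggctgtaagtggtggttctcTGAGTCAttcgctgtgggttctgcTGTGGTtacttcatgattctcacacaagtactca
Gzmc: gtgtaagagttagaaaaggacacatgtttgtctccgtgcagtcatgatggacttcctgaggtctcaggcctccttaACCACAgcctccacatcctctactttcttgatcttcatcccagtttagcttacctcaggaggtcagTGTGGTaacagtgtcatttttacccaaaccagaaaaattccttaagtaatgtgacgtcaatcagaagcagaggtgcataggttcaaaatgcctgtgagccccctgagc
Xcl1: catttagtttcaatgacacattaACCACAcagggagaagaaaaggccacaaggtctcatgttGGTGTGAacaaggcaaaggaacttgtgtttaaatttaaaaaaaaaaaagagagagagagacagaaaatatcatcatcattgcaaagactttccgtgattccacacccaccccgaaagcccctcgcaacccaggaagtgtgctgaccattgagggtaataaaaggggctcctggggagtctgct
No match overlapped another of these motifs in the 4 sequences. The Runx core was found upstream of 6 of the 10 genes (Gzma, Gzmb, Gzmc, Prf1, Nkg7 and Xcl1), against 14% of 32851 RefSeq promoter windows of 250 bases. The T-box site was found upstream of Xcl1 alone among the 10, against 3.33% of all windows, and the AP-1 site upstream of Gzmb alone, against 6.75%. A match describes letters in the window and not a bound site. The last 500 bases of the longest coding transcript of each of the 10 genes shared no stretch of 50 bases with a transcript of another gene. Over its whole transcript Gzmc shared 4.14% of such stretches, with Gzme, Gzmg and Gzmd, and those genes had 0 counts in all cells of both libraries.

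Filtering left 11019 cells with imiquimod alone and 7863 with both agents, at median depths of 1616 and 1780 counts. The libraries shared 49 barcodes, of which 46 belonged to retained cells and 0 to lymphocytes. Scrublet marked 0 cells as doublets in the imiquimod library, so doublets there were not removed, and 83 of 7946 (1.04%) in the other. Clusters 0, 12 and 23 were named T and NK cell-like from 11, 12 and 10 of 15 markers, with the 10 genes kept out of the clustering, and are called lymphocytes below. They held 2499 cells with imiquimod alone, or 22.7% of cells, and 509 with both agents, or 6.47%. Cluster 0 was led by Il17a, Il17f and Trdc, cluster 12 by Ccl5, Gzmc and Ighm, and cluster 23 by Cd7, Trat1 and Xcl1. Lymphocytes with a count of Cd3d, Cd3e or Cd3g were split by Trdc, the delta chain constant region, and Trac, the alpha chain constant region.

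The split gave 1424 Trdc-positive cells with imiquimod alone and 215 with both agents, 239 and 64 Trac-positive cells, 159 and 25 with both genes, and 312 and 69 with neither. The remaining 365 and 136 lymphocytes had no Cd3 count. The share of Trdc-positive cells among lymphocytes was 57.0% (55.0 to 58.9) with imiquimod alone and 42.2% (37.9 to 46.7) with both agents, and that of Cd3-negative cells was 14.6% (13.2 to 16.1) and 26.7% (22.9 to 30.8). The Cd3-negative group is not a pure innate gate: 122 of its 365 cells with imiquimod alone and 22 of its 136 with both agents had a Trdc count, and 58 and 32 had a Trac count. Ncr1, which marks natural killer cells and group 1 innate lymphoid cells, was seen in 4 and 5 of those cells, and Klrb1c, another natural killer receptor, in 3 and 6. The median depth of lymphocytes was 1004 counts with imiquimod alone and 779 with both agents.

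Most counts of all 10 genes in the imiquimod library, and of all but Fasl and Eomes in the other, lay in lymphocytes. These cells held 89.4% of the Gzma counts of the imiquimod library and 93.8% of those of the other, and between 81.8% and 90.6% of the counts of Gzmb, Gzmc, Prf1, Nkg7, Ifng and Xcl1 in either library. The shares were lower for Fasl (78.7% and 45.2%), Tbx21 (77.9% and 61.5%) and Eomes (55.2% and 30.8%), which had few counts in all. With both agents, 15 of the 42 Fasl counts lay in keratinocyte-like cells, spread over 13 of them. At least 1 of the 10 genes was detected in 693 lymphocytes with imiquimod alone (27.7%) and in 238 with both agents (46.8%), and at least 3 in 7.04% and 15.1%. In fibroblast-like cells, which should lack the programme and were deeper at medians of 1962 and 2091.5 counts, any of the 10 was seen in 5.58% and 2.52% of cells and at least 3 in 0.385% and 0.133%.

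**Figure D1:**
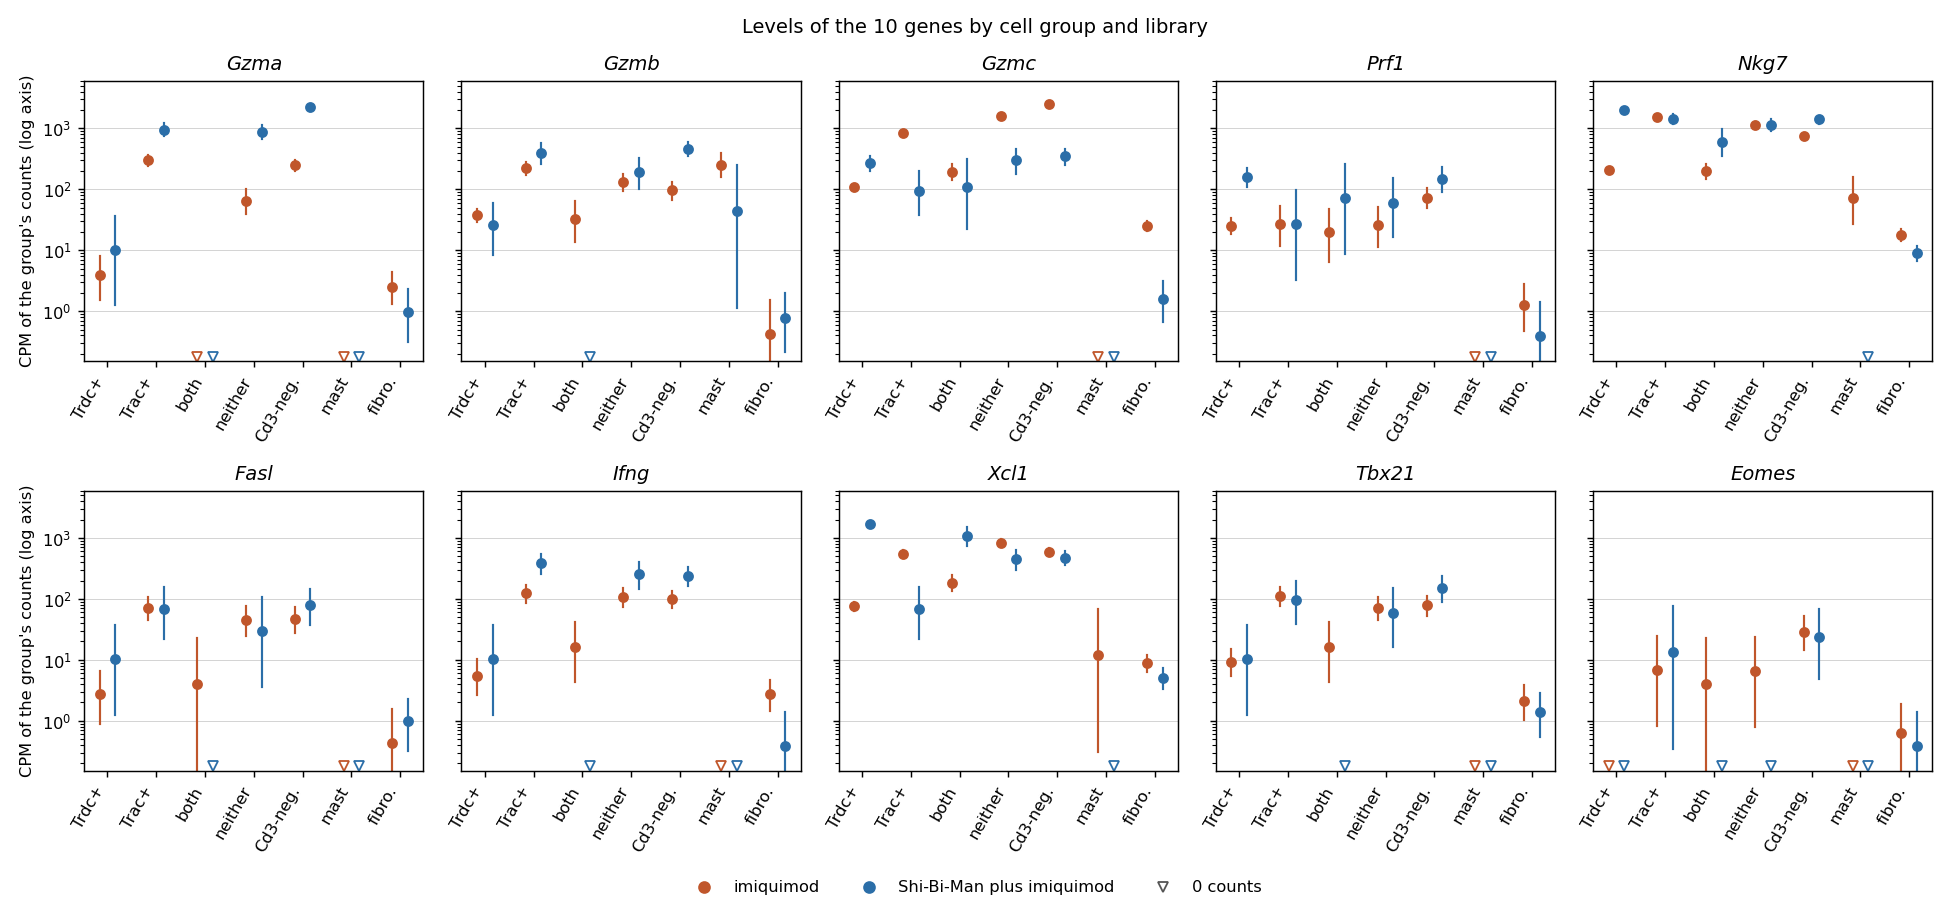
CPM (counts per 1000000 counts) of each gene in 7 cell groups (log axis), with exact 95% Poisson intervals. Orange stands for imiquimod, blue for Shi-Bi-Man plus imiquimod, and open triangles mark groups with 0 counts. Gzma is higher in the blue library in Trac-positive, Cd3-negative and neither-chain cells, and Gzmc is lower there (2477 and 347 CPM in Cd3-negative cells).

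Levels are given as CPM, the counts of a gene per 1000000 counts of all genes in the same cells. The ratio is the log2 of the CPM with both agents over that with imiquimod alone, with 0.5 counts added to each sum. Genes with 20 or more counts over both libraries are termed measured, and those past 1.5-fold are called higher or lower. All 10 genes were measured over all lymphocytes. Of them 9 were higher with both agents, against 19.9% of the 10439 genes measured, and 1, Gzmc, was lower, against 15.9%. Their median ratio was 1.62, beside 0.04 over all genes. The libraries differ in their mix of lymphocyte clusters, however, and the values by role below are followed by those within groups.

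Gzma encodes granzyme A, a trypsin-like protease. It stood at 69.0 CPM with imiquimod alone, from 210 counts in 40 cells, and at 839 CPM with both agents, from 411 counts in 35 cells. The ratio of 3.60 (3.36 to 3.85) was the highest of the 10. The gene was thus seen in 1.60% of lymphocytes with imiquimod alone and 6.88% with both agents, and a positive cell held a mean of 5.25 and 11.7 counts. The 5 highest cells held 42.9% and 41.6% of its counts.

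Gzmb encodes granzyme B, which cleaves caspases and Bid. It stood at 72.3 CPM with imiquimod alone and 217 CPM with both agents, a ratio of 1.59 (1.23 to 1.92). Its counts came from 122 and 40 cells, and 1 cell held 23 of the 106 counts of the latter library. Gzmc encodes granzyme C, a granule protease of mice. It alone had the opposite direction, with 636 CPM from 1935 counts in 165 cells with imiquimod alone and 259 CPM from 127 counts in 24 cells with both agents, a ratio of -1.29 (-1.56 to -1.03). A Gzmc-positive cell held a mean of 11.7 counts with imiquimod alone and 5.29 with both agents. The other granzyme genes were almost silent: Gzmd, Gzme, Gzmf, Gzmg and Gzmn had 0 counts in lymphocytes of either library, Gzmk had 4 and 5, and Gzmm had 3 and 0.

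Prf1 encodes perforin. It was at 31.2 CPM in lymphocytes with imiquimod alone and 118 CPM with both agents, a ratio of 1.93 (1.43 to 2.41), and the median positive cell had 1 count in both libraries. Nkg7, a membrane protein of cytotoxic granules, was seen in 456 lymphocytes with imiquimod alone and 190 with both agents. It was at 495 and 1556 CPM, a ratio of 1.65 (1.53 to 1.78). Fasl, the Fas ligand, was at 19.4 and 38.8 CPM from 59 and 19 counts, a ratio of 1.03 (0.17 to 1.77).

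Ifng, which encodes interferon gamma, was at 39.7 CPM in 78 lymphocytes with imiquimod alone and at 157 CPM in 26 with both agents, a ratio of 1.99 (1.55 to 2.41). Of the 77 counts of the latter library, 39 came from 5 cells. Xcl1, which encodes the chemokine that attracts cross-presenting dendritic cells, was at 270.4 and 929 CPM, from 216 and 113 cells, a ratio of 1.78 (1.61 to 1.95). Tbx21, which encodes T-bet, was at 34.8 and 65.4 CPM, a ratio of 0.92 (0.29 to 1.49). Eomes had 16 and 4 counts, and its ratio of 0.76 had an interval from -1.40 to 2.27. All intervals but that of Eomes left out 0.

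Lymphocytes were shallower with both agents, so shares of positive cells were also compared at equal depth. When every cell was thinned to 500 counts, which left out no lymphocyte, Gzma was detected in 1.24% (0.844 to 1.76) of lymphocytes with imiquimod alone and 6.29% (4.34 to 8.76) with both agents. The corresponding shares of Nkg7 were 14.4% and 31.6%, and those of Xcl1 6.44% and 19.1%. Gzmb was in 3.16% and 6.09% and Prf1 in 1.76% and 5.50%, also with separate intervals. The intervals overlapped for the remaining genes called higher. Ifng was in 2.08% (1.56 to 2.72) and 2.95% (1.66 to 4.81). Fasl was in 1.16% and 1.57%, Tbx21 in 1.88% and 2.55%, and Eomes in 0.360% and 0.393%. The share of Gzmc was 5.44% (4.59 to 6.41) and 4.32% (2.73 to 6.47), and these intervals overlap. Shares over all lymphocytes mix the clusters. In cluster 12 alone the share of Gzmc was 20.6% (17.3 to 24.2) and 7.27% (3.81 to 12.4). Xcl1 was in 22.2% and 13.3% of cluster 12 and in 22.8% and 59.7% of cluster 23. In fibroblast-like cells thinned alike, Nkg7 was seen in 0.866% and 0.353%, Xcl1 in 0.337% and 0.221%, Gzmc in 0.818% and 0.0442%, and Gzma in 0.0481% and in 0 of 2264 cells, where 3 cells would be 0.133% and the exact interval ends at 0.163%.

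The 10 genes did not follow 1 pattern once lymphocytes were split by receptor chain. In Trdc-positive cells 5 of the 10 were measured. Of these, Gzmc, Prf1, Nkg7 and Xcl1 were higher with both agents, against 23.1% of 8590 genes, and 0 were lower, against 22.9%. The median was 2.66, beside 0.02 over all genes. Xcl1 went from 75.0 CPM to 1695 CPM, a ratio of 4.50 (4.21 to 4.80), and Nkg7 from 205 CPM to 1988 CPM, a ratio of 3.28 (3.07 to 3.49). Prf1 was at 25.4 and 159 CPM and Gzmc at 108 and 272 CPM, with ratios of 2.66 (1.94 to 3.34) and 1.34 (0.87 to 1.78). The Gzmc ratio was -3.58 where lymphocytes were found by counts and not by clusters. Gzmb, at 38.1 and 25.7 CPM, had a ratio of -0.44 (-2.23 to 0.72). The remaining genes had few counts here: Gzma had 7 and 2 counts, Ifng 10 and 2, Tbx21 17 and 2, Fasl 5 and 2, and Eomes 0 and 0.

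In Trac-positive cells 8 of the 10 were measured and they split. Gzma, Gzmb and Ifng were higher with both agents, against 17.1% of 3278 genes, and Gzmc and Xcl1 were lower, against 21%. The median was -0.03, as over all genes (-0.03). Gzma was at 299.6 CPM in 12 cells with imiquimod alone and 956 CPM in 6 cells with both agents, a ratio of 1.68 (1.201 to 2.14). Ifng was at 123 CPM in 23 cells and 383 CPM in 9 cells, a ratio of 1.65 (0.88 to 2.40). That difference turned to -0.18 when a cell needed 2 Cd3 counts to enter the gate. Gzmb, at 225 and 396 CPM, had a ratio of 0.83 (0.14 to 1.47). One both-agent cell held 12 of its 29 counts in that library. In cells thinned to 500 counts, Gzmb was in 10.9% and 7.81%, with overlapping intervals. Over the alternative settings its ratio ran from 0.19 to 1.90.

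Gzmc was at 841 CPM in 29 Trac-positive cells with imiquimod alone and 95.6 CPM in 3 cells with both agents, a ratio of -3.04 (-4.47 to -2.07). Xcl1 was at 541 CPM in 40 cells and 68.3 CPM in 4 cells, a ratio of -2.85 (-4.63 to -1.73). One cell held 43 of the 159 Xcl1 counts with imiquimod alone, and the ratio kept its sign without the highest cell of each library. Nkg7, at 1529 and 1421 CPM, had a ratio of -0.10 (-0.43 to 0.21), and those of Fasl (0.04) and Tbx21 (-0.15) had intervals that spanned 0. The interval of Tbx21 ran from -1.65 to 0.97 and that of Fasl from -1.83 to 1.38, so neither bounds a difference closely.

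In Cd3-negative lymphocytes 9 of the 10 were measured, 7 were higher with both agents, against 17.6% of 4324 genes, and Gzmc was lower, against 17.6%. The median was 0.95, beside 0.01 over all genes. Gzma was at 248 CPM in 19 cells with imiquimod alone and 2209 CPM in 23 cells with both agents, a ratio of 3.15 (2.81 to 3.50), and this was its highest group in the latter library. Gzmb was at 96.7 and 465 CPM, a ratio of 2.26 (1.65 to 2.90). Gzmc was at 2477 CPM in 52 cells and 347 CPM in 8 cells, a ratio of -2.82 (-3.31 to -2.40). Ifng was at 99.3 and 237 CPM and Nkg7 at 755 and 1404 CPM. Prf1, Nkg7, Fasl, Ifng and Tbx21 had ratios of 1.05, 0.90, 0.78, 1.26 and 0.95, and the interval of Fasl spanned 0. Of the 30 Ifng counts with both agents, 27 came from 5 cells. In cells thinned to 500 counts, Ifng was in 4.38% (2.53 to 7.02) and 2.94% (0.807 to 7.36). Xcl1, at 591 and 473 CPM, had a ratio of -0.31 (-0.75 to 0.10).

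Cells with Cd3 but neither chain, where 69 cells came from the both-agent library, gave 65.3 and 879 CPM for Gzma and 1619 and 298 CPM for Gzmc. Gzma was therefore higher, and Gzmc lower, in Trac-positive, Cd3-negative and neither-chain cells alike. The neither-chain values of the both-agent library rest on 59 Gzma counts in 5 cells and 20 Gzmc counts in 2 cells. One of those 2 cells held 15 of the Gzmc counts. The 25 cells with both chains in that library had 3 or fewer counts of each gene but Nkg7, at 201 and 611 CPM, and Xcl1, at 185 and 1077 CPM. One of these 25 cells held 20 of their 30 Xcl1 counts.

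**Figure D2:**
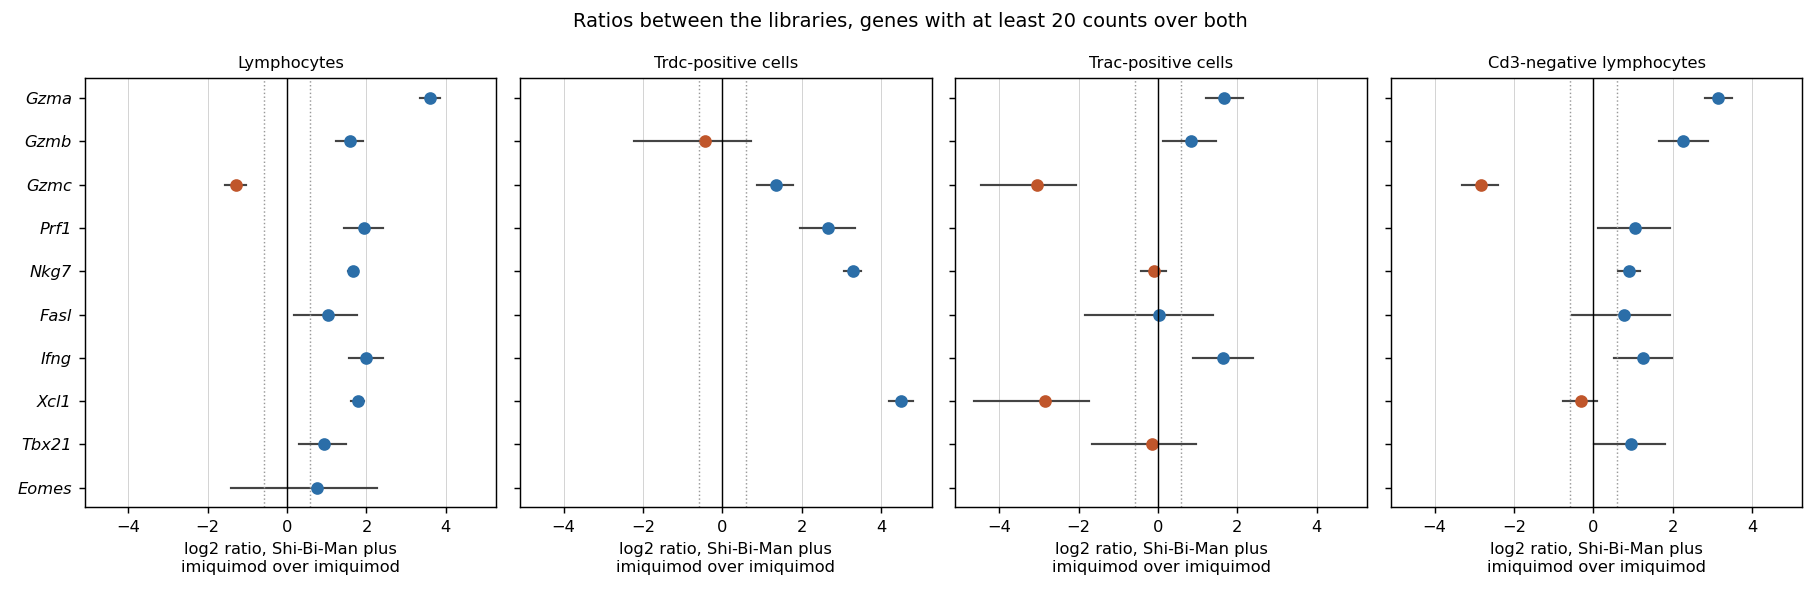
Log2 ratios of Shi-Bi-Man plus imiquimod over imiquimod for the genes measured in each lymphocyte group, with exact 95% intervals, and dotted lines at 1.5-fold. Blue points lie above 0 and orange points below. Gzmc and Xcl1 lie above 0 in Trdc-positive cells (1.34 and 4.50) and below 0 in Trac-positive cells (-3.04 and -2.85).

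The order of the lymphocyte groups differed between genes and libraries. Gzma was highest in Trac-positive and Cd3-negative cells with imiquimod alone, whose intervals overlapped, and in Cd3-negative cells with both agents, above all other groups. Gzmc was highest in Cd3-negative cells with imiquimod alone, with Cd3-positive cells of neither chain and Trac-positive cells following, each beyond its interval. With both agents, Gzmc was alike within its intervals in Cd3-negative, neither-chain and Trdc-positive cells. For Nkg7 and Xcl1, Trdc-positive cells were the fourth and the fifth group with imiquimod alone and the highest with both agents. Ifng, Fasl and Tbx21 were highest in Trac-positive, neither-chain and Cd3-negative cells in both libraries, with overlapping intervals among those 3 groups. For Fasl with both agents, neither-chain and Trdc-positive cells had 2 counts each. The Fasl interval of Trdc-positive cells there (1.24 to 37.1 CPM) also overlapped those of neither-chain and Trac-positive cells.

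The mix of clusters moved with the Trdc-positive result. Of the Trdc-positive cells, 1302 of 1424 with imiquimod alone belonged to cluster 0 and 93 to cluster 23. With both agents, 102 of 215 belonged to cluster 0 and 110 to cluster 23. The 8 epidermal gamma delta T cell markers include Trgv5 and Trdv4. They summed to 8844 and 10896 CPM in the Trdc-positive cells of cluster 23 and to 1822 and 985 CPM in those of cluster 0. All 8 were detected in the former in both libraries, and 8 and 6 in the latter. The markers other than Trgv5 and Trdv4 also belong to the list of 19 natural killer receptor and adaptor genes. That list summed to 9476 and 10870 CPM in the Trdc-positive cells of cluster 23, so the sums do not set the lists apart. The 11 markers of IL-17-producing gamma delta T cells summed to 16119 and 11308 CPM in cluster 0 and to 206 and 105 CPM in cluster 23. The median depth of the Trdc-positive cells of cluster 23 was 604 counts with imiquimod alone, below the 1099.5 of cluster 0.

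Within cluster 23 the ratios of Trdc-positive cells were closer to 0 for all 4 of Nkg7, Prf1, Gzmc and Xcl1. Nkg7 was at 3408 and 4903 CPM, a ratio of 0.52 (0.28 to 0.77), Prf1 at 323 and 394 CPM, 0.28 (-0.56 to 1.15), and Gzmc at 529 and 552 CPM, 0.06 (-0.62 to 0.75). Xcl1 was at 793 CPM in 25 of 93 cells with imiquimod alone and 4232 CPM in 77 of 110 cells with both agents, a ratio of 2.40 (1.996 to 2.86). Ifng and Eomes had 0 counts there in both libraries, where 3 counts would be 44.1 and 39.4 CPM. In the Trdc-positive cells of cluster 0, Nkg7 was at 31.7 and 69.1 CPM and Xcl1 at 12.9 and 34.6 CPM, the latter from 22 and 4 counts. Of the 196 Gzmc counts of Trdc-positive cells with imiquimod alone, 131 came from 12 of the 29 such cells in cluster 12, where the other library had 3 cells and 0 counts. Among all Trdc-positive cells at the cluster mix of the imiquimod library, the ratio was 1.58 for Xcl1, 0.54 for Nkg7, 0.06 for Gzmc and -0.01 for Prf1. The Gzmc value rests largely on 1 both-agent cell of cluster 0, which held all 11 Gzmc counts of that cluster.

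**Figure D3:**
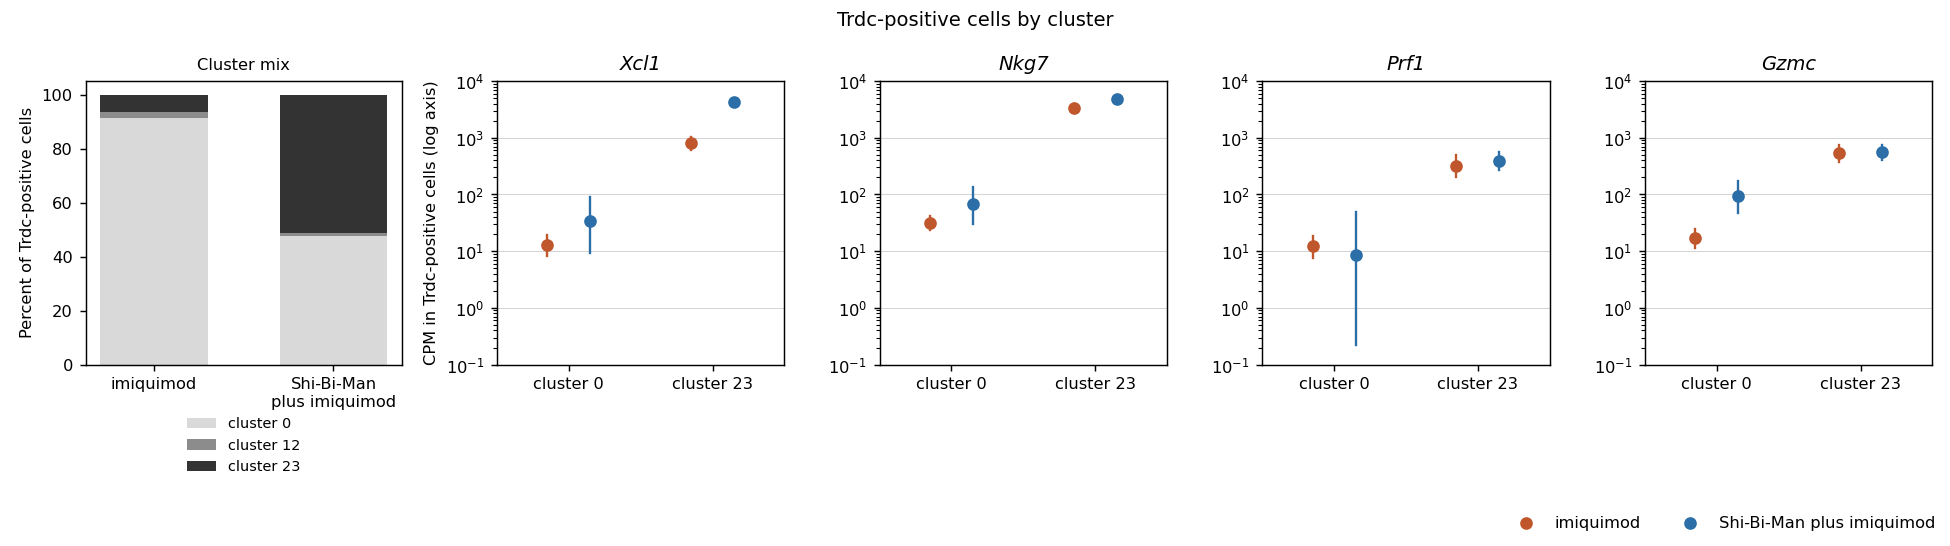
Left, the percent of Trdc-positive cells in each lymphocyte cluster by library. Right, CPM of 4 genes in the Trdc-positive cells of clusters 0 and 23 (log axis), with exact 95% Poisson intervals, orange for imiquimod and blue for Shi-Bi-Man plus imiquimod. Cluster 23 has the higher level of each gene and makes up more of the blue library, and within it Xcl1 alone of the 4 is several-fold higher (793 and 4232 CPM).

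Over all lymphocytes the same weighting, with the levels of the 3 clusters at their imiquimod mix, left 4 of the 10 genes higher and Gzmc lower. Gzma stood at a ratio of 2.89, Ifng at 1.42, Gzmb at 0.95, Prf1 at 0.66, and Gzmc at -2.19. Nkg7 (0.40), Fasl (0.40), Tbx21 (0.39), Xcl1 (-0.06) and Eomes (0.15) then lay within 1.5-fold. In cluster 12, Gzma was at 298 and 2467 CPM, Gzmc at 2822 and 428 CPM, and Ifng at 163 and 434 CPM. Nkg7 there was at 1717 and 2014 CPM, a ratio of 0.23 (0.05 to 0.41), and Xcl1 at 1111 and 554.9 CPM, a ratio of -0.99 (-1.33 to -0.69). Xcl1 was thus lower in cluster 12 and higher in cluster 23. Over all cells of the library, where lymphocytes make up 22.7% and 6.47%, the direction turned for most genes: Gzmb stood at -0.67, Nkg7 at -0.50, Ifng at -0.32 and Xcl1 at -0.34, while Gzma stayed higher (1.37) and Gzmc lower (-3.41).

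Counts of Gzma and Gzmc were seen together in 1 lymphocyte. With imiquimod alone, 40 lymphocytes had a Gzma count and 165 a Gzmc count, and the 1 shared cell was among them. With both agents, 35 had Gzma and 24 had Gzmc, and 0 had both. Both genes were in few of the 2499 and 509 lymphocytes, so few shared cells would be seen even if the genes were unrelated. Whether the overlap is smaller than that was not tested. Of the Gzma-positive cells, 18 of 40 and 21 of 35 also had Gzmb, against 4 of 165 and 0 of 24 Gzmc-positive cells. Over all lymphocytes Gzmb was in 122 of 2499 and 40 of 509. Klrg1, a receptor of differentiated effector lymphocytes, was in 8 of 40 and 21 of 35 Gzma-positive cells, against 0 of 165 and 1 of 24 Gzmc-positive cells.

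Gzmc was seen with Xcl1, in 111 of 165 with imiquimod alone and 17 of 24 with both agents, and with Fcer1g, the signalling adaptor of several innate receptors, in 123 of 165 and 18 of 24. In Gzma-positive cells Xcl1 was seen in 11 of 40 and 7 of 35, and over all lymphocytes in 216 of 2499 and 113 of 509. Itga1, an integrin of resident lymphocytes, was in 33 of 165 Gzmc-positive cells and 2 of 40 Gzma-positive cells with imiquimod alone, and the both-agent library had 1 of 24 and 1 of 35. Nkg7 was common in both sets of cells, in 32 of 40 and 33 of 35 Gzma-positive and 110 of 165 and 15 of 24 Gzmc-positive cells. The median depth of cells with Gzma was 797 and 974 counts, and that of cells with Gzmc was 1180.0 and 794.

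The same pairs were counted within gates. Of the Trac-positive cells with imiquimod alone, 12 had Gzma, 29 had Gzmc and 0 had both. Cd8a, the CD8 alpha chain, was in 6 of those 12 Gzma-positive cells and 2 of the 29 Gzmc-positive cells. In Cd3-negative lymphocytes, 23 cells had Gzma with both agents and 8 had Gzmc, with 0 in common. The gates held 239 and 136 cells, too few for an overlap of 0 to set the genes apart. Of the 23 Gzma-positive Cd3-negative cells, 5 had Ncr1, 14 had Klrg1 and 8 had Trac.

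Ifng-positive lymphocytes held counts of all 3 granzymes in both libraries. With imiquimod alone, 19 of 78 also had Gzmc, 5 had Gzma and 2 had Gzmb. With both agents, 1 of 26 had Gzmc and 9 had Gzma, and 9 had Gzmb. Il17a was in 7 of the 78 and 0 of the 26. The difference in these shares was not tested.

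**Figure D4:**
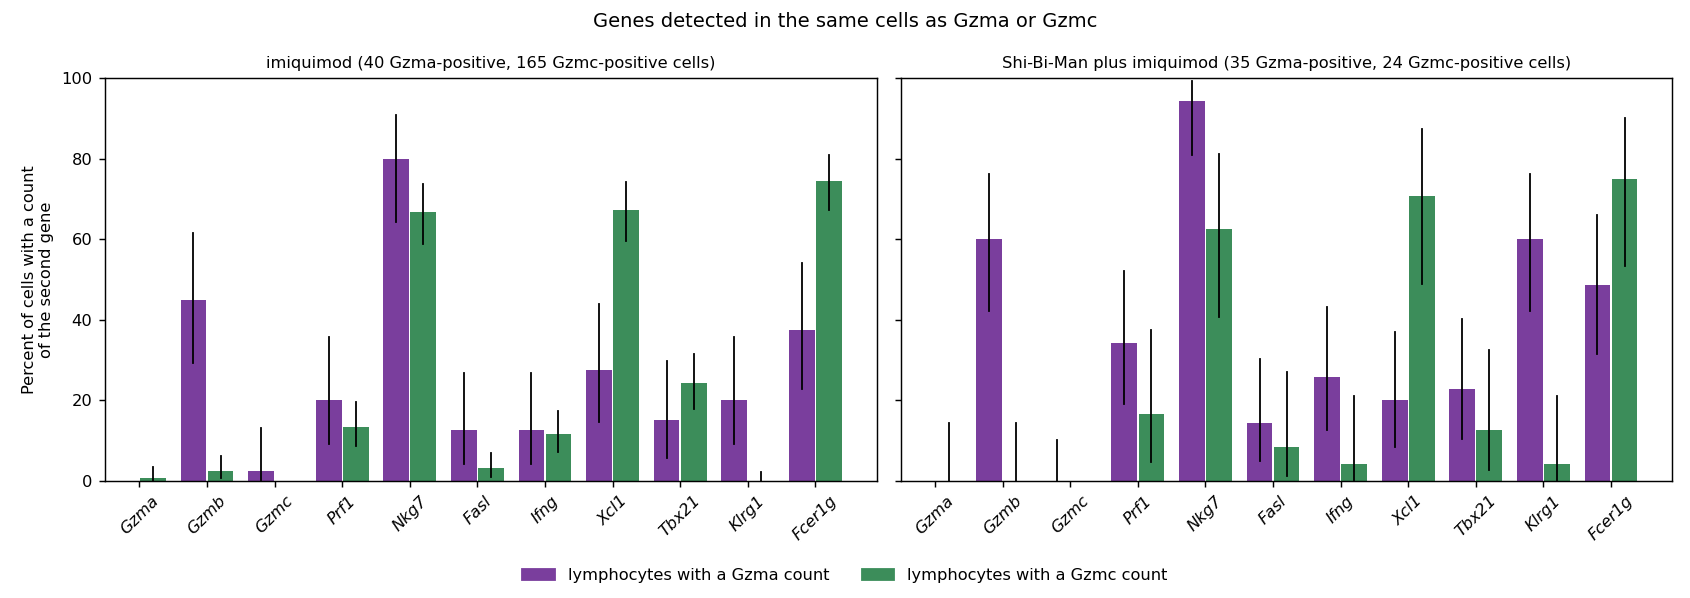
Percent of lymphocytes with a Gzma count (purple) or a Gzmc count (green) that also have a count of each gene on the horizontal axis, by library, with exact 95% binomial intervals. Gzmb and Klrg1 are seen more often with Gzma, and Xcl1 and Fcer1g with Gzmc, in both libraries. The overlap of Gzma and Gzmc is 1 cell of 165 and 0 of 24. At these cell numbers the overlap cannot show whether the genes exclude each other.

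Gzmb, which mouse mast cells are known to make, was also seen in that class. The mast cell-like cluster, named from 9 of 9 markers, held 63 cells with imiquimod alone and 18 with both agents. Gzmb had 21 counts in 6 of the 63 cells, which is 255 CPM (158 to 390.2), at the level of Trac-positive cells of that library (225 CPM). It had 1 count in the 18 cells of the other library. Gzma, Gzmc, Prf1, Fasl, Ifng, Tbx21 and Eomes had 0 counts in mast cell-like cells of both libraries, where 3 counts would be 36.5 and 134 CPM. Nkg7 had 6 and 0 counts and Xcl1 1 and 0.

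In the larger classes of other cells the levels were low. Gzmc was at 25.4 CPM in fibroblast-like cells, 26.1 CPM in macrophage-like cells and 6.09 CPM in keratinocyte-like cells of the imiquimod library, and at 1.56, 5.58 and 0.654 CPM in the other. In the same order of classes, Gzma was at 2.54, 3.45 and 0.184 CPM with imiquimod alone and at 0.976, 4.65 and 1.74 CPM with both agents. Fasl was at most 2.79 CPM in these 3 classes. The source of these counts was not tested.

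The receptors of these ligands were read in the same cells. Ifngr1, the ligand-binding chain of the interferon gamma receptor, was at 242 and 196 CPM in macrophage-like cells, 161 and 116 CPM in fibroblast-like cells, 27.3 and 26.2 CPM in keratinocyte-like cells and 291 and 390.1 CPM in lymphocytes. Ifngr2, the signalling chain, was at 90.5 and 79.0 CPM in macrophage-like cells and 57.2 and 42.9 CPM in lymphocytes. Fas was at 46.0 and 91.9 CPM in lymphocytes, a ratio of 1.01 (0.48 to 1.49), and at 28.6 and 14.4 CPM in keratinocyte-like cells, a ratio of -0.99 (-1.34 to -0.65). The keratinocyte-like class differed in make-up: cluster 25, led by Krt77, held 30 and 1119 cells, and cluster 15 held 584 and 153. A change of level and a change of make-up cannot be told apart in the ratios of this class. Xcr1, the receptor of XCL1, had 17 and 15 counts in all cells, of which 12 and 10 lay in macrophage-like cells.

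Genes that interferon gamma is known to induce were described as a list of 20. In macrophage-like cells 13 of 18 measured members were higher with both agents, against 13.5% of 10474 genes, and 0 were lower, against 11.9%, with a median of 0.87 beside 0.02 over all genes. Examples are Gbp2, a guanylate-binding protein, at 60.2 and 206 CPM, and Cxcl9, a T cell chemokine, at 27.6 and 85.5 CPM. In blood endothelial-like cells 12 of 17 were higher, against 13.5% of 7897 genes, and 0 lower, against 18.7%, with a median of 0.78 beside -0.04. In keratinocyte-like cells 3 of 17 were higher, against 14.8% of 13714 genes, and 5 lower, against 18.3%, with a median of -0.20 beside -0.11. The differing cluster make-up of that class applies to these counts too. In fibroblast-like cells 0 of 17 were higher, against 9.42% of 13037 genes, and 0 lower, against 10.7%, with a median of 0.30 beside 0.01. In lymphocytes 6 of 15 were higher, against 19.9% of 10439 genes, and 0 lower, against 15.9%, with a median of 0.31 beside 0.04. Type I interferons are known to induce many of the same genes.

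Other genes of the pathway were read from lists, beside the 19.9% of all 10439 genes that were higher in lymphocytes, the 15.9% that were lower and their median of 0.04. Of 14 measured genes of granule loading and release, 6 were higher in lymphocytes and 0 lower (median 0.38). They include Lyst, a regulator of lysosome size (15.8 and 57.2 CPM), Serpinb9, an inhibitor of granzyme B (28.3 and 73.5 CPM), Serpinb6b (23.3 and 77.6 CPM) and Rab27a, which docks granules (53.9 and 93.95 CPM). Of 11 death ligand and receptor genes 4 were higher and 3 lower (median 0.15). They include Tnf (97.6 and 196 CPM) on one side and the adaptor Fadd (27 counts and 1 count, with an interval of the ratio that spans 0) on the other. Of 19 genes of type 1 cytokine signalling 5 were higher and 0 lower (median 0.08), and that share of higher genes is near the one over all genes. Il12rb2, an IL-12 receptor chain, was at 14.1 and 89.9 CPM, and in Trdc-positive cells at 8.83 and 170 CPM.

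Chemokines that cytotoxic cells release along with XCL1 were read in lymphocytes too. Ccl5 was at 590.3 CPM with imiquimod alone and 4159 CPM with both agents, a ratio of 2.82, and Ccl4 at 73.3 and 633 CPM, a ratio of 3.11. Ccl3 was at 26.9 and 125 CPM, a ratio of 2.21. Of 18 measured natural killer receptor and adaptor genes 11 were higher over all lymphocytes, against 19.9% of all genes, and 3 lower, against 15.9% (median 1.01). Within clusters 0, 12 and 23 the medians of this list were -0.32, -0.43 and 0.23, beside 0.06, 0.002 and -0.02 over all genes. The rise over all lymphocytes was thus not seen in clusters 0 and 12. In Trac-positive cells 1 of 11 was higher, against 17.1%, and 7 lower, against 21%, with a median of -1.52. Ncr1 rests on 12 and 9 counts, and Klrg1 was at 84.4 and 319 CPM. In the opposite direction, 9 of 11 measured genes of IL-17-producing gamma delta T cells were lower in lymphocytes, against 15.9% of all genes, and 0 higher, against 19.9%, with a median of -0.94, led by Il17a at 5380 and 1609 CPM. Of 7 measured genes of group 2 innate lymphoid cells 4 were higher, against 19.9%, and 0 lower, against 15.9%, led by Il5 at 8.21 and 110.3 CPM. Of 7 measured epidermal gamma delta T cell genes 3 were higher, against 19.9%, and 1 lower, against 15.9%. As the mix of clusters differed between the libraries, a change of level per cell and a change in which cells were captured cannot be told apart in these sums.

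Across the 34 groups of at least 50 cells, formed by cell class and library, the profiles most like each gene were ranked by Pearson's r of log2(CPM + 1) among genes with at least 100 counts. Fasl, Ifng and Tbx21 were most like each other, with r of 0.97 for Fasl and Tbx21, 0.97 for Ifng and Tbx21 and 0.96 for Fasl and Ifng. Gzma was most like Fasl (0.94) and Ifng (0.94), and Gzmc most like Ms4a4b (0.92) and Trbc1 (0.91), both of which are T cell genes. Gzmb was most like Ccr8 (0.94), a chemokine receptor, and Tnfsf8 (0.92). Xcl1 and Nkg7 shared Skap1 (0.93 for each), and Prf1 was most like Nkg7 (0.91) and Xcl1 (0.90). Eomes, with 42 counts, was most like Fasl (0.82). The groups share 2 libraries and their depth, and the values are a description.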

How the data were processed

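Dorsal skin of imiquimod-treated mice, with or without Shi-Bi-Man, was profiled in 2 single-cell libraries. The deposited matrices hold raw counts per gene and cell, per the file headers and the whole-number values. The builds named are mm10 and GRCm38, per the submitters' processing notes. The aligner, the cell calling and whether reads were collapsed to molecules are not given in the sources used here. The libraries held 28920316 and 20837259 counts in 11316 and 8054 barcodes.

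Cells with under 200 genes or over 20% mitochondrial counts were left out, as were cells Scrublet called doublets. Cells were clustered with scanpy 1.11.5, anndata 0.12.19, numpy 2.4.6 and scipy 1.17.1 under Python 3.11.15 (2000 variable genes, 30 components, 15 neighbours, Leiden resolution 1, seed 0), with 125 genes of the 10 genes and the lists left out. A cluster was named from at least 3 markers that were 2-fold above the rest and in 10% of its cells. Counts were summed by cell group and library. Intervals are Poisson for CPM, conditional binomial for ratios and Clopper-Pearson for shares. Scaling factors of edgeR 4.0.16 and DESeq2 1.42.0 under R 4.3.3 served as alternatives only, since 1 library a group allows no test. The ratio and interval code was tested on simulated data.

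The genes and lists were chosen with earlier results of these data known. The text names the 10 genes, up to 4 measured genes of each list past 1.5-fold in lymphocytes (in the class described, for interferon-induced genes), the receptors Ifngr1, Ifngr2, Xcr1 and Fas, and the 2 genes most like each of the 10. The markers seen together with Gzma, Gzmc or Ifng were picked after their values were seen. Alternatives covered cell filters, clustering, gates, scaling, background subtraction, the added count and the depth for shares. One gene of the chemokine list, and the counts over that list, are not reported here.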

Additional observations from a re-analysis of the deposited data

Results flagged for a closer look

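Gzmc and Xcl1 had opposite directions in cells of different receptor chain. The Gzmc log2 ratio of both agents over imiquimod alone was 1.34 in Trdc-positive cells and -3.04 in Trac-positive cells, a gap of 4.38. That of Xcl1 was 4.50 and -2.85, a gap of 7.35. With 1 library in each group the difference was not tested. The Trac-positive cells of the both-agent library held 7 Gzmc counts in 3 cells and 5 Xcl1 counts in 4 cells. In Trdc-positive cells weighted to the cluster mix of the imiquimod library, the ratios were 0.06 for Gzmc and 1.58 for Xcl1. The weighted Gzmc value rests largely on 1 both-agent cell of cluster 0 with 11 counts. Among lymphocytes found by counts without clusters the Gzmc ratio of Trdc-positive cells was -3.58.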

How the results depend on the processing

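No paired analysis was possible because each treatment has 1 library. Of 512 recomputed ratios of the 10 genes, 459 stayed within their interval and 48 moved beyond it. The other 5 had a main ratio past 1.5-fold and took the opposite sign. Sign changes of smaller ratios, such as Nkg7 in Trac-positive cells (from -0.33 to 0.80 over the settings), are counted in the former numbers. The mix of clusters, single-cell and immunoglobulin alternatives were chosen after seeing the data. At the imiquimod mix of clusters, the median ratio in lymphocytes went from 1.62 to 0.40 and in Trdc-positive cells from 2.66 to 0.0561. The latter is the ratio of Gzmc, which rests largely on 1 cell. At that mix the count of higher genes in lymphocytes went from 9 to 4. Xcl1 in lymphocytes (-0.0606) and Prf1 in Trdc-positive cells (-0.00838) turned sign. With lymphocytes found by counts and not by clusters, which kept 564 and 78 cells, the medians were 2.25 and 3.43, the latter over 3 genes. Eomes in lymphocytes (-0.93) and Gzmc in Trdc-positive cells (-3.58) turned sign there. Only 12 of the 32 ratios stayed within their interval in that setting, and 18 moved beyond it. With the mean over cells the lymphocyte median was 1.31, and 9 of the 32 ratios moved beyond their interval. With 2 Cd3 counts required, Ifng in Trac-positive cells was -0.18. Apart from the mix and the gate, whose construction changes which cells count, the cause was not tested. With at least 500 genes per cell, 11 of the 32 ratios moved beyond their interval, and no ratio past 1.5-fold changed sign. Among the 11 were Gzma in Cd3-negative lymphocytes (3.15 to 5.81), Gzmc (-3.04 to -4.97) and Ifng (1.65 to 0.70) in Trac-positive cells, and Gzmc in Trdc-positive cells (1.34 to 0.68). TMM and DESeq2 scaling, both Leiden resolutions, the doublets kept and the highest cell of each library left out moved none of the 32 ratios beyond its interval. The 64 Trac-positive and 136 Cd3-negative cells of the both-agent library limit the precision there.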
